A study of Homo sapiens with 11 samples.

Results

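The 36 genes described here encode aminoacyl-tRNA synthetases, the enzymes that join each amino acid to its matching transfer RNA. They were picked by symbol from the 28152 gene symbols of the deposited tables. The choice of this family was made with earlier results of these data known. The cytosolic set has 20 genes and the mitochondrial set 16, whose symbols end in 2. The list also named TARSL2, a symbol that the tables do not use, and its letters left out FARS2, the mitochondrial phenylalanyl enzyme. FARS2 and TARS3, a cytosolic threonyl enzyme, are given for reference and were not counted as members.

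Translation needs a charged transfer RNA for every amino acid, and cells make separate nuclear-encoded synthetases for the cytosol and for mitochondria in most cases. When an amino acid runs short, uncharged transfer RNA activates the kinase GCN2, and the transcription factor ATF4 then raises amino acid transporters, biosynthetic enzymes and many cytosolic synthetases. In the cytosol several synthetases sit in one large complex held together by the scaffold proteins AIMP1, AIMP2 and EEF1E1. Methionyl-tRNA synthetase supplies the methionine that starts every new protein, and methionine aminopeptidases remove that residue again from many of them.

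The libraries came from tumours of BT-474, an established human breast cancer line labelled as hormone receptor and HER2 positive, grown in the mammary fat pad of female athymic nude mice. All mice were given estradiol from a pellet (0.72 mg, 90 days), and a tumour became eligible once it exceeded 95 cubic millimetres. The vehicle group (6 libraries) received mannitol in water under the skin every 4 days, and the evexomostat group (5 libraries) received evexomostat (SDX-7320), an inhibitor of methionine aminopeptidase 2, at 12 mpk on the same schedule. All libraries are labelled day 33, and the comparison asks which transcripts differ between the groups. The labels number the libraries without naming animals, so p-values measure the spread between these libraries. All tumours are of 1 line, and nude mice keep macrophages, fibroblasts and vessels that can contribute RNA.

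Library totals ranged from 22808033 to 39249329 counts, and synthetases held 0.400% to 0.564% of them. The top 100 genes took 23.9% of counts in vehicle replicate 001, where the other libraries ranged from 16.2% to 17.9%, and this library had the highest or the lowest vehicle level of 22 of the 36 members. Evexomostat replicate 003 had the lowest level of its group in 25 of 36. Of 10 markers of luminal breast epithelium, PGR had at most 5 and ESR1 at most 17 counts in any library. CDH1, KRT19, FOXA1, EPCAM and GATA3 had at most 43, 46, 71, 149 and 264. ERBB2 (HER2) had 551 to 2471 counts, KRT18 3530 to 6207 and KRT8 6216 to 15285. Scaled to library size, ERBB2 averaged 52.5 CPM under vehicle and 54.3 under evexomostat, below KRT18 at 134.4 and 165.8. ESR1 averaged 0.329 and 0.234 CPM and PGR 0.0683 and 0.0620. These ESR1 and PGR levels do not bear out the labelled hormone receptor status, and the reason was not tested. The summed level of the list was 337.7 to 755.9 RPM under vehicle and 477.4 to 650.3 under evexomostat. Summed muscle markers (10 genes) were 3.08 to 20.8 RPM under vehicle and 4.24 to 517.5 under evexomostat, highest in evexomostat replicate 005, and 6 of 7 tested muscle markers were higher at an unadjusted p under 0.05. Fibroblast (8 genes), leukocyte (8) and endothelial (6) lists overlapped between the groups, at 394.7 to 2069 against 503.2 to 1130, 71.1 to 121.7 against 89.8 to 110.8, and 8.92 to 23.2 against 10.2 to 14.98 RPM. Adipocyte markers (5 genes) stayed at or under 2.86 RPM. Apart from the values given without single libraries, the part of these differences in the results was not tested.

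Levels are given in CPM, counts scaled to library size with edgeR's TMM factors, and a gene said to be at a signed value is at that log2 fold change, evexomostat relative to vehicle. Most cytosolic synthetases had a higher mean level under evexomostat, by at most 1.51-fold, and no synthetase passed the test over all genes. In edgeR's quasi-likelihood test 0 of 36 members had an adjusted p-value under 0.05, where 0.606% of the 16653 tested genes did. At an unadjusted p under 0.05 there were 5 members higher (MARS1, GARS1, AARS1, YARS1 and YARS2), where 4.82% of all tested genes were called higher, and 1 lower (IARS2), where 8.55% were. The log2 fold change was above 0 for 26 of 36 members, against 44.6% of all tested genes. Without vehicle replicate 001 it was above 0 for 24 of 36 (49.6% of all genes), and 7 members were higher and 1 lower at an unadjusted p under 0.05, where 10.9% and 13.5% of all genes were. Other tools called more: DESeq2 called 1 member, MARS1, and limma-voom with quality weights called 5 higher (MARS1, GARS1, YARS1, TARS1 and YARS2). These tools called 3.90% and 6.36% of all genes in either direction, with 200 and 384 of the 16653 genes called higher.

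The median log2 fold change was 0.15 over the 20 cytosolic members and 0.03 over the 16 mitochondrial ones, against -0.04 over all tested genes. Above 0 were 16 of 20 cytosolic and 10 of 16 mitochondrial members. In bulk tissue, fewer cells with a transcript and less of it per cell cannot be told apart.

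**Figure D1:**
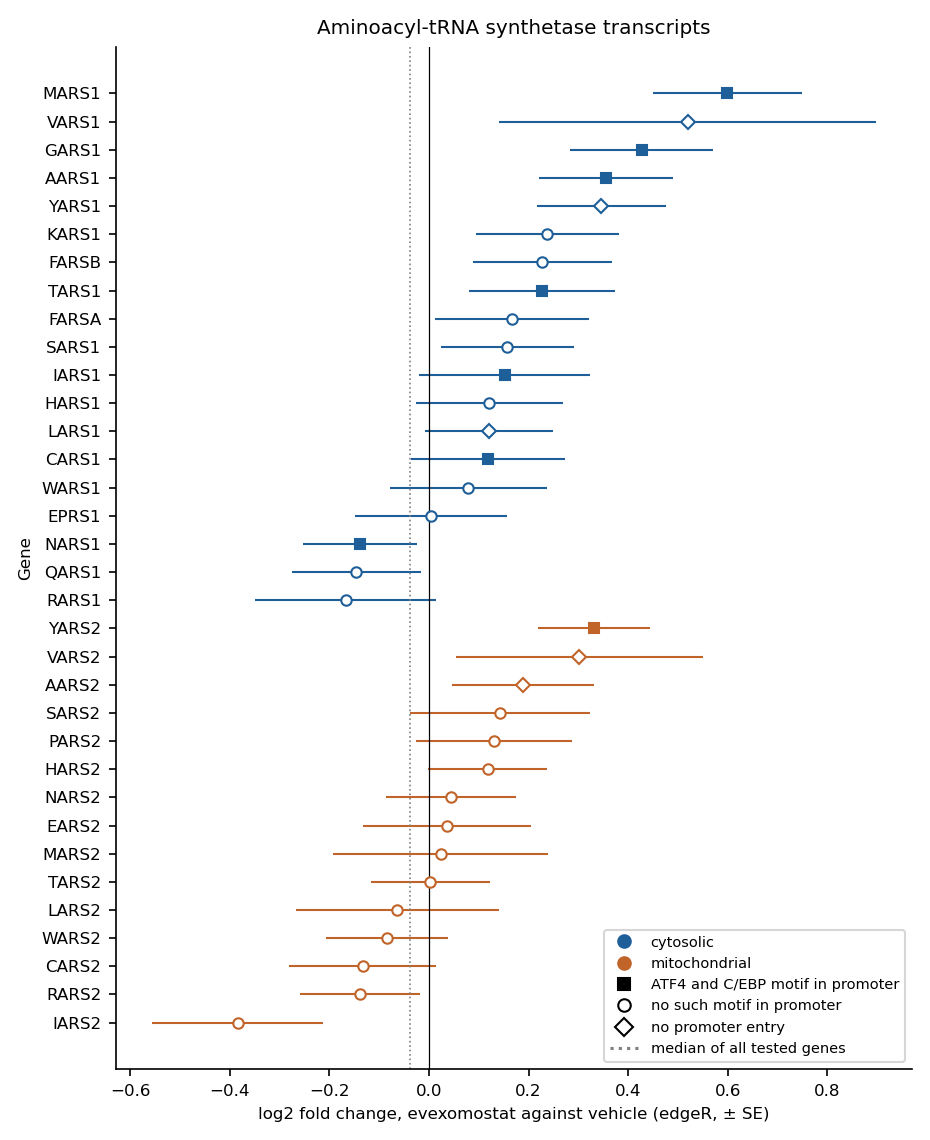
Log2 fold change (evexomostat against vehicle, x axis) of 34 of the 36 synthetase genes (y axis), with the standard error from edgeR's fit of 6 vehicle and 5 evexomostat libraries. Blue marks cytosolic and orange mitochondrial members, filled squares mark a promoter that holds the ATF4 and C/EBP motif, open circles one that lacks it and open diamonds no promoter entry, and the dotted line is the median of all tested genes at -0.04. MARS1 lies farthest to the right at 0.60 and IARS2 farthest to the left at -0.38.

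MARS1, the cytosolic methionyl-tRNA synthetase, was the only member whose groups did not overlap. Its level in the vehicle libraries was between 71.0 and 121.8 CPM, with a median of 90.9. In evexomostat replicates 002, 003, 004, 005 and 007 it was 135.6, 128.2, 164.3, 139.1 and 129.4 CPM. Every evexomostat library lay above every vehicle library, which happened for 1 of 36 members, where the groups did not overlap, in this direction, in 1.33% of all tested genes (1.64% lower, 2.97% in either direction). The means were 92.0 ± 19.0 (SD, n = 6) and 139.3 ± 14.7 CPM (SD, n = 5). The log2 fold change was 0.60 (SE 0.15), a 1.51-fold higher level, with an edgeR adjusted p of 0.0953. Without vehicle replicate 001 it was 0.61 and past the threshold (edgeR adjusted p 0.0358), in a fit that called 5.22% of 16565 genes (1.98% higher), and without evexomostat replicate 005, where muscle transcripts were highest, it was 0.60 (edgeR adjusted p 0.210). In the authors' deposited table MARS1 has a log2 fold change of 0.70 and an adjusted p of 0.0232. It is the 1 member of 36 under 0.05 there, where 0.952% of all 28152 symbols are. That table rests on the same libraries and is not limited to the 16653 genes tested here. It has 28 of 36 members above 0, with EPRS1 at 0.10 against 0.00 here.

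Its mitochondrial counterpart MARS2, which supplies methionyl-tRNA inside the organelle, overlapped between the groups. MARS2 was between 17.9 and 46.0 CPM under vehicle, with a median of 26.2. In evexomostat replicates 002, 003, 004, 005 and 007 it was 32.3, 23.2, 35.3, 33.0 and 27.9 CPM, all within the vehicle range. The log2 fold change of MARS2 was 0.02 (SE 0.22, edgeR adjusted p 0.980), so its interval is wide. The inhibited enzyme's own transcript, METAP2, was at 84.6 to 104.0 CPM in vehicle libraries other than replicate 001, where it was 215.6, and at 105.5 to 110.7 under evexomostat. With that library included, the groups overlapped, at 111.5 ± 51.5 (SD, n = 6) and 108.6 ± 2.22 CPM (SD, n = 5). No test of METAP2 is given here.

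GARS1 encodes glycyl-tRNA synthetase, which serves both compartments from a single gene. It was between 133.4 and 213.6 CPM under vehicle, with a median of 176.6. In evexomostat replicates 002, 003, 004, 005 and 007 it was 266.1, 179.4, 240.0, 236.4 and 246.7 CPM. Evexomostat replicate 003 lay inside the vehicle range, and the other evexomostat libraries lay above it. The log2 fold change was 0.43 (SE 0.14, edgeR adjusted p 0.212).

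AARS1, the alanyl enzyme, was between 144.7 and 208.1 CPM under vehicle (median 167.3) and at 248.3, 184.9, 246.9, 209.4 and 214.1 CPM in the evexomostat replicates, in the same order. Again replicate 003 was the only evexomostat library inside the vehicle range. This gave a log2 fold change of 0.36 with an SE of 0.13 (edgeR adjusted p 0.263). YARS1, the tyrosyl enzyme, was between 233.8 (replicate 001) and 351.6 CPM under vehicle (median 301.6) and at 400.8, 333.2, 393.3, 372.2 and 361.4 CPM under evexomostat. YARS1 was at a log2 fold change of 0.35 (SE 0.13, adjusted p 0.258 in edgeR), and its lowest evexomostat library was below the highest vehicle library only.

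**Figure D2:**
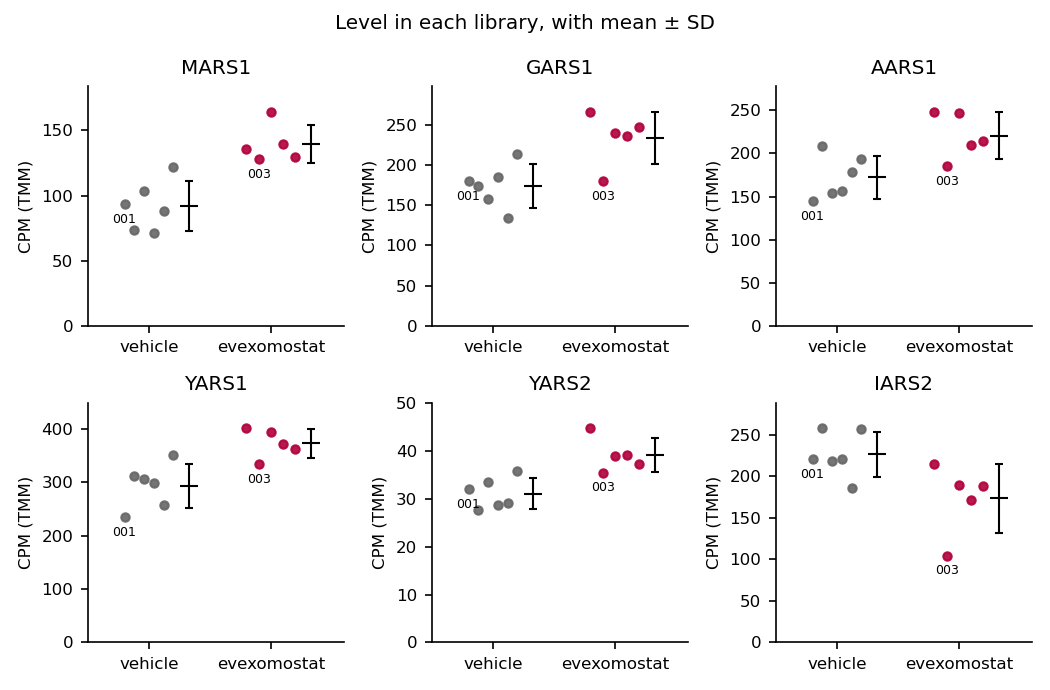
Level in CPM (y axis, from 0) of 6 synthetase genes in each library, with vehicle points in grey, evexomostat points in red and the group mean ± SD in black. Vehicle replicate 001 and evexomostat replicate 003 are numbered. The 5 evexomostat points of MARS1 lie between 128.2 and 164.3 CPM, above all vehicle points, and IARS2 is lowest in evexomostat replicate 003 at 104.5 CPM.

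The cytosolic synthetases commonly listed as ATF4 targets were 12 members, among them MARS1, GARS1, AARS1 and YARS1. Of these 12, 11 had a log2 fold change above 0, and the median was 0.15, or 0.23 without vehicle replicate 001. TARS1, the threonyl enzyme, was at 0.23 (SE 0.15, edgeR adjusted p 0.558). Without vehicle replicate 001, the highest vehicle library at 416.6 CPM, TARS1 was at 0.33 (edgeR adjusted p 0.0861). SARS1 (seryl) was at 0.16, IARS1 (isoleucyl) at 0.15, LARS1 (leucyl, also a leucine sensor of the mTORC1 pathway) at 0.12 and CARS1 (cysteinyl) at 0.12, with edgeR adjusted p-values of 0.677 to 0.812. CARS1 was also highest in vehicle replicate 001, at 131.3 CPM, and without it had a log2 fold change of 0.25 (edgeR adjusted p 0.180).

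The other members of this list lay near or under 0. EPRS1, a single protein that charges both glutamate and proline, was between 254.1 and 379.4 CPM under vehicle (median 311.8) and at 379.5, 235.7, 319.8, 306.0 and 321.5 CPM under evexomostat. The groups overlapped throughout (log2 fold change 0.00, SE 0.15, edgeR adjusted p 0.995). NARS1, the asparaginyl enzyme, was the 1 listed member under 0, at -0.14 (SE 0.11, edgeR adjusted p 0.666).

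WARS1, the tryptophanyl enzyme, is known to be induced by interferon-gamma as well. It was between 322.8 and 556.4 CPM under vehicle (median 437.4) and at 376.3, 406.7, 521.8, 452.0 and 537.6 CPM under evexomostat (log2 fold change 0.08 with SE 0.16, adjusted p 0.890 in edgeR). The groups covered almost the same range. Of 12 tested genes on a list of interferon-gamma targets, 11 had a log2 fold change under 0 and 1 above, where 44.6% of all tested genes were above 0. None passed edgeR's adjusted threshold, and 5 were lower at an unadjusted p under 0.05, where 8.55% of all genes were. Leaving out vehicle replicate 001, 8 of 11 were under 0 and 3 above, where 49.6% of all genes were above 0. Among them IRF1, an interferon-induced transcription factor, was at -0.49 (edgeR adjusted p 0.227) and GBP2, an interferon-induced GTPase, at -0.62 (0.151). Whether WARS1 differs from these genes was not tested.

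The 8 other cytosolic members, not on the ATF4 list, had a median log2 fold change of 0.14, with 5 above 0 and 3 under 0. At an unadjusted p under 0.05, 0 of the 8 were called by edgeR. KARS1 (lysyl, shared with mitochondria) was at 0.24, FARSB and FARSA (the paired subunits of the phenylalanyl enzyme) at 0.23 and 0.17, and HARS1 (histidyl) at 0.12, with edgeR adjusted p-values of 0.521 to 0.791. The median of these 8 was 0.10 without vehicle replicate 001, against 0.23 for the listed members, and the difference between these lists was not tested.

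RARS1 and QARS1, both of the multi-synthetase complex, were among the 3 lowest cytosolic values. RARS1 (arginyl) was between 119.2 and 240.4 CPM under vehicle (median 155.0), highest in replicate 001, and at 178.2, 118.4, 143.9, 154.9 and 145.2 CPM under evexomostat. Its log2 fold change of -0.17 (SE 0.18, adjusted p 0.762 in edgeR) was -0.03 without that library. QARS1 (glutaminyl) was between 268.8 and 390.9 CPM under vehicle (median 288.9) and at 295.5, 248.4, 267.1, 261.5 and 295.2 CPM under evexomostat. On the log2 scale QARS1 was at -0.15 (SE 0.13, edgeR adjusted p 0.695), and the groups overlapped.

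Across the 8 synthetases of that complex, which include EPRS1, IARS1, LARS1, MARS1 and KARS1, the median log2 fold change was 0.06, with 5 above 0. MARS1 was the only 1 of the 8 with an unadjusted p under 0.05 in edgeR. The scaffold genes AIMP1, AIMP2 and EEF1E1 were at -0.01, 0.12 and -0.22 (edgeR adjusted p 0.993, 0.798 and 0.898). Without vehicle replicate 001, where AIMP1 reached 178.9 CPM and EEF1E1 71.5, the same 3 genes were at 0.26, 0.16 and 0.47 (edgeR adjusted p 0.121, 0.505 and 0.323).

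VARS1, the cytosolic valyl enzyme, had only 3 to 14 counts per library, against 1778 or more for every other cytosolic member described here. Its level was between 0.110 and 0.485 CPM under vehicle (median 0.188) and 0.248, 0.446, 0.362, 0.397 and 0.373 CPM under evexomostat. Its log2 fold change of 0.52 (SE 0.38, adjusted p 0.619 in edgeR) therefore rests on a handful of reads. Of the 20 nearest protein-coding genes in RefSeq's GRCh38.p14 order on chromosome 6 that the table holds, 18 had fewer than 100 counts in every library. VARS2, on the same chromosome, had 65 to 134 counts, and 15 of its 19 nearest such genes were under 100. Values of both genes are printed here, also per kilobase, but neither gene by itself is taken as a measure of expression. Both are counted in the totals, medians, sums and pairs, and VARS2 also appears among the flagged library values. How reads of this stretch were counted was not tested.

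Among mitochondrial synthetases, whose enzymes translate the few proteins encoded by mitochondrial DNA, values lay on both sides of 0. YARS2 (tyrosyl) had the highest log2 fold change of this set. It was between 27.7 and 35.7 CPM under vehicle (median 30.6) and at 44.8, 35.5, 38.99, 39.2 and 37.3 CPM under evexomostat. The lowest evexomostat library lay just below the highest vehicle library. The log2 fold change was 0.33 (SE 0.11, edgeR adjusted p 0.214).

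VARS2 was between 2.26 and 3.68 CPM under vehicle (median 2.51) and at 2.14, 5.43, 2.86, 3.05 and 2.89 CPM under evexomostat (log2 fold change 0.30, SE 0.25, edgeR adjusted p 0.664). AARS2 (alanyl) was between 15.6 and 26.8 CPM under vehicle (median 25.3), lowest in replicate 001, and at 26.0, 29.5, 26.6, 25.8 and 26.8 CPM under evexomostat. On the log2 scale AARS2 was at 0.19 (SE 0.14, edgeR adjusted p 0.635). SARS2, PARS2 and HARS2 were at 0.14, 0.13 and 0.12, and NARS2, EARS2 and TARS2 at 0.04, 0.04 and 0.00, with edgeR adjusted p-values of 0.742 to 0.995.

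IARS2, the mitochondrial isoleucyl enzyme and the most abundant of its set, was the lowest of all members. It was between 186.4 and 258.0 CPM under vehicle (median 220.8) and at 214.7, 104.5, 189.3, 171.2 and 188.7 CPM under evexomostat. Evexomostat replicates 003 and 005 lay below every vehicle library, and the other evexomostat libraries lay inside the vehicle range. Its log2 fold change was -0.38 (SE 0.17, edgeR adjusted p 0.348), and -0.25 without replicate 003. RARS2 (arginyl) was between 65.3 and 91.5 CPM under vehicle (median 73.9) and at 74.2, 60.4, 67.6, 75.1 and 71.8 CPM under evexomostat, a log2 fold change of -0.14 (edgeR adjusted p 0.685). CARS2 (cysteinyl) was between 64.9 and 116.1 CPM under vehicle (median 89.8) and at 87.5, 91.7, 75.7, 71.9 and 79.5 CPM under evexomostat, a log2 fold change of -0.13 (edgeR adjusted p 0.766). WARS2 and LARS2 were at -0.08 and -0.06, with edgeR adjusted p-values of 0.836 and 0.936. FARS2 was at 0.12 (edgeR adjusted p 0.899), or 0.44 (0.0847) without vehicle replicate 001, and TARS3 at -0.02 (0.979).

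Because both sets are read in the same library, their ratio does not depend on library scaling. This summary was chosen after the values were seen and has no test. The summed level of the cytosolic members was between 3715 and 4419 CPM under vehicle (median 3877) and at 4739, 3676, 4507, 4235 and 4548 CPM in evexomostat replicates 002, 003, 004, 005 and 007. The summed level of the mitochondrial members was between 776.0 and 950.1 CPM under vehicle (median 883.8) and at 880.7, 690.0, 835.9, 820.1 and 850.0 CPM under evexomostat. Each sum overlapped between the groups. The ratio was between 4.23 and 4.79 under vehicle (median 4.57) and 5.38, 5.33, 5.39, 5.16 and 5.35 under evexomostat, which did not overlap. Without IARS1 and IARS2 the ratio was 5.00 to 6.11 under vehicle and 5.70 to 6.29 under evexomostat, and as a difference of mean log2 CPM over genes it was 1.84 to 2.19 and 2.01 to 2.10. In both forms the groups overlapped through vehicle replicate 001 alone, and the next vehicle library lay at 5.67 and 1.91, below every evexomostat library.

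**Figure D3:**
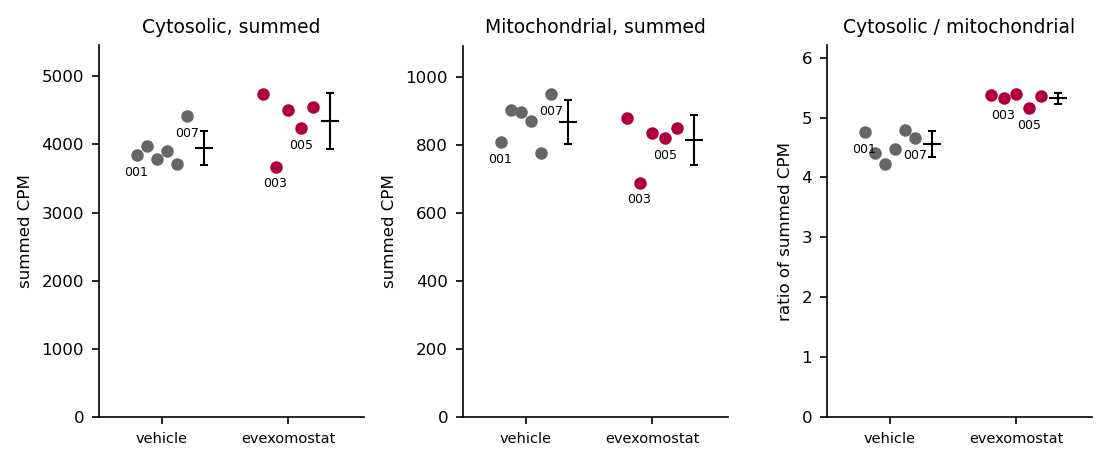
Summed CPM of the 20 cytosolic members (left), of the 16 mitochondrial members (middle) and their ratio (right) in each library, all y axes from 0, with the group mean ± SD in black and some libraries marked by replicate number. The sums overlap between vehicle (grey) and evexomostat (red), while the ratio runs from 4.23 to 4.79 under vehicle and from 5.16 to 5.39 under evexomostat.

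Compared amino acid by amino acid, 16 pairs of a cytosolic and a mitochondrial gene could be formed, with EPRS1 paired with both EARS2 and PARS2. The mean log2 ratio of counts was higher under evexomostat in 10 of 16 pairs. These include VARS1 with VARS2, and neither this count nor group overlap was worked out for other pairs of genes. The isoleucyl pair was the only pair whose groups did not overlap, at 0.24 to 0.99 under vehicle and 1.22 to 1.69 under evexomostat. The methionyl pair differed by a similar amount, 1.66 ± 0.37 (SD, n = 6) against 2.21 ± 0.16 (SD, n = 5), but its groups overlapped through vehicle replicate 001 at 2.38. The tyrosyl pair, in which both genes were higher, had nearly equal ratios of 3.23 ± 0.22 (SD, n = 6) and 3.25 ± 0.06 (SD, n = 5).

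Divided by the length of the gene's exons, cytosolic members had a median level over all libraries of 65.7 CPM per kilobase and mitochondrial members 9.88. WARS1, YARS1 and QARS1 were the highest, at 104.9, 101.6 and 100.2 CPM per kilobase. Their group SDs were 7.28 to 18.2, so the order of these 3 is not resolved. IARS2 (56.9), CARS2 (45.5), TARS2 (43.1) and RARS2 (40.5) were as abundant as several cytosolic genes, and the other mitochondrial members were at 23.1 or less. MARS1 was among the lower cytosolic members under vehicle, at 31.7 ± 6.55 CPM per kilobase (SD, n = 6), near HARS1 at 32.0. Under evexomostat it was at 48.0 ± 5.05 (SD, n = 5), against 34.8 ± 5.07 for HARS1.

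**Figure D4:**
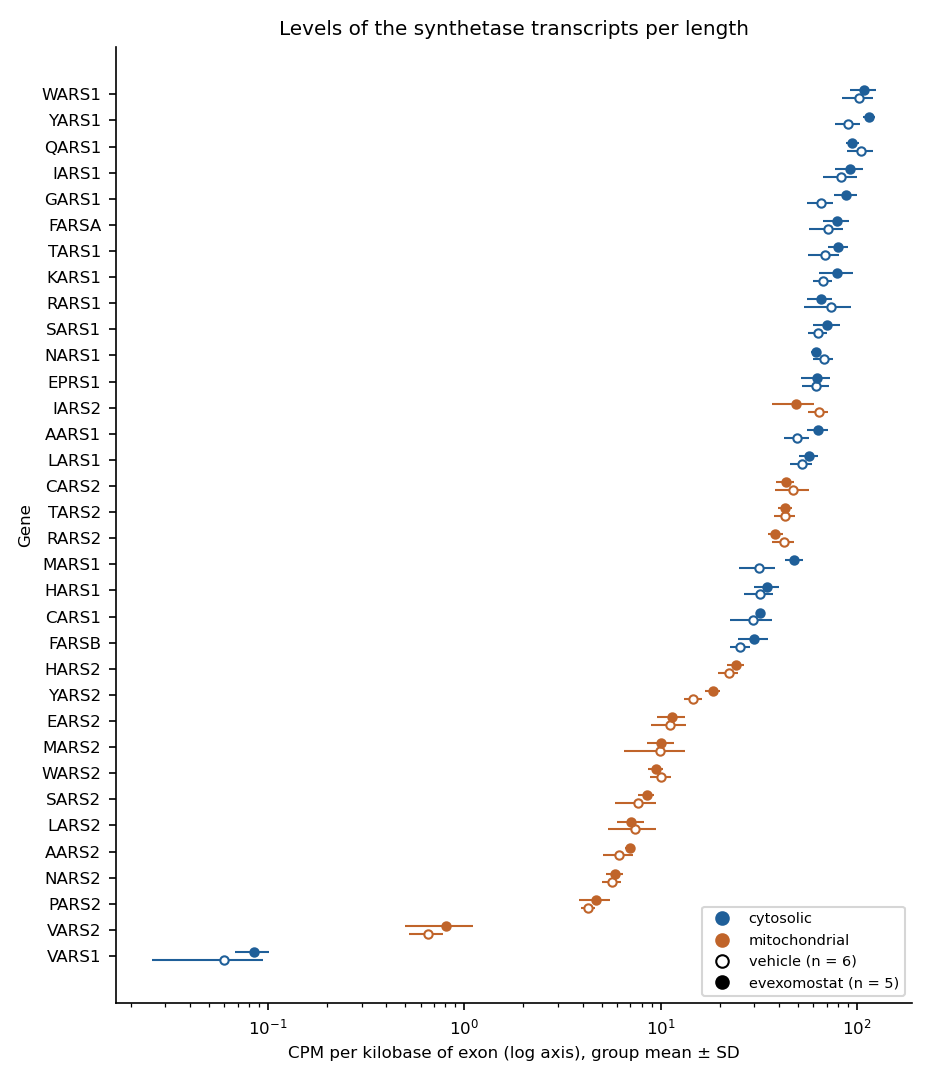
Level of 34 of the 36 synthetase genes in CPM per kilobase of exon (x axis, log scale), as group mean ± SD, with open points for vehicle and filled points for evexomostat. Most blue cytosolic members lie above the orange mitochondrial members, and VARS1 and VARS2 lie at or under 0.804 CPM per kilobase.

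Promoters were searched for TGATGNAA, the element bound by ATF4 with C/EBP partners, because the higher members include genes commonly listed as ATF4 targets. RefSeq promoter sequences (build GRCh38.p14, 250 bases before to 50 after the transcription start) were matched for 29 of 36 members. The element, on either strand, was found in 8 of these 29, against 4.46% of 27305 genes with a promoter of the same length (a gene counts if any of its entries holds it). Of the 8, 7 are ATF4-listed cytosolic genes (of 10 matched), 1 is mitochondrial (of 13) and 0 of 6 other cytosolic genes held it. The form TGATGCAA, which the general search includes, was in 6 members and in 1.08% of all genes. The search pattern sets how alike the elements are, and the window bounds how far they can lie from the start. The 30 bases around each match also hold the bases that flank the element, which the pattern did not set. These 30 bases are written 5′ to 3′ along the gene's strand, with the element in capitals.
MARS1, chr12:57488053-57488082, plus strand: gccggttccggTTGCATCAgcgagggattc
GARS1, chr7:30594834-30594863, plus strand: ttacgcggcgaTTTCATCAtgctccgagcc
AARS1, chr16:70289675-70289704, minus strand: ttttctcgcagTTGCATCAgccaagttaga
TARS1, chr5:33440956-33440985, plus strand: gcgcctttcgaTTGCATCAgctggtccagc
IARS1, chr9:92293692-92293721, minus strand: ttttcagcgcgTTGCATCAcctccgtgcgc
CARS1, chr11:3057407-3057436, minus strand: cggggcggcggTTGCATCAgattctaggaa
NARS1, chr18:57621804-57621833, minus strand: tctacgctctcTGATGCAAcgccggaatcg
YARS2, chr12:32756076-32756105, minus strand: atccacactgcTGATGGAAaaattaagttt

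In MARS1 the element spans the transcription start, in CARS1 too, and in IARS1, GARS1, TARS1 and NARS1 it lies within 33 bases of it. In AARS1 and YARS2 it lies 187 and 197 bases before the start. CARS1, GARS1 and TARS1 each have a further promoter entry that lacks it. Members holding the element had a median log2 fold change of 0.28 (7 of 8 above 0), and those whose promoter lacked it 0.04 (14 of 21 above 0). Most holders are cytosolic, so this contrast cannot be told apart from that between the compartments. Among cytosolic members alone the medians were 0.23 with it (6 of 7 above 0) and 0.12 without (7 of 9). Among ATF4-listed members the medians were 0.23 over 7 genes with it and 0.08 over 3 without. These are descriptions without a test. NARS1 held the element at a log2 fold change of -0.14, and KARS1 and FARSB lacked it at 0.24 and 0.23. A match says only that these letters occur in the window, and binding was not measured.

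HARS1 and HARS2 lie head to head, with starts 85 bases apart in these sequences, so their promoter windows overlap. Their log2 fold changes were 0.12 each, and neither window held the element. Whether the counting used strand is not given in the sources used here.

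Among related genes, 14 of 15 in the table were tested and 0 passed edgeR's adjusted threshold or an unadjusted p under 0.05. Their median log2 fold change was 0.04, with 9 above 0, or 0.16 with 12 above 0 without vehicle replicate 001. XPOT, which exports transfer RNA from the nucleus, was at 0.18, and DTD1, which removes D-amino acids from transfer RNA, at 0.27. MTFMT, which formylates methionyl-tRNA in mitochondria, was at -0.31 (edgeR adjusted p 0.517). The transamidase subunits QRSL1, GATB and GATC, which make mitochondrial glutaminyl-tRNA, were at 0.04, 0.04 and 0.00.

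Of 31 tested genes of the amino acid stress list, 1 passed edgeR's adjusted threshold, CBS (a transsulfuration enzyme, log2 fold change 1.16, edgeR adjusted p 0.0138), where 0.174% of all tested genes were called higher. At an unadjusted p under 0.05, 8 were higher and 1 lower, where 4.82% and 8.55% of all tested genes were, and the median log2 fold change was 0.24. ATF4 itself was at 0.27 (edgeR adjusted p 0.447), CHAC1 (a glutathione-degrading ATF4 target) at 1.01 (0.0992), PHGDH (the entry enzyme of serine synthesis) at 0.73 (0.0992) and the neutral amino acid carriers SLC1A4 and SLC7A5 at 0.76 (0.126) and 0.65 (0.335). The 1 gene lower at an unadjusted p under 0.05 was ATF3, at -0.32 (edgeR adjusted p 0.351). Others on the list were lower or near 0, such as DDIT4, a stress-induced mTORC1 inhibitor, at -0.83 (edgeR adjusted p 0.466). PSAT1, a further serine synthesis enzyme, was at -0.02. The transcription factors CEBPB and DDIT3 were at -0.53 (edgeR adjusted p 0.428) and -0.12 (0.917). DDIT3 was at 0.29 without vehicle replicate 001. Without vehicle replicate 001, 6 of these 31 genes were called higher and 0 lower, in a fit that called 1.98% of all genes higher.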

How the data were processed

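RNA of 11 tumour libraries (6 vehicle, 5 evexomostat) was grouped by title, and table columns were matched to libraries by the code in the sample description. The deposited counts are whole-number reads per gene symbol. The deposited RPM values are those counts scaled by the authors to the library total (largest difference from the counts 2.27e-13). The authors' deposited table gives log2 fold changes, p-values and adjusted p-values. The submitters' processing notes name STAR 2.7.5c, featureCounts, edgeR and the build GRCh37 (hg19). Annotation, strand use and treatment of mouse reads are not given in the sources used here.

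Genes passing filterByExpr (minimum count 10, total 15; 16653 of 28152) were compared with edgeR 4.0.16 in R 4.3.3, by the quasi-likelihood test with TMM scaling, no covariates and Benjamini-Hochberg adjustment over all tested genes, threshold 0.05. All 36 members passed this filter. Levels are TMM-scaled CPM. Standard errors are implied by the F statistic. Alternatives used limma 3.58.1 (voom, trend) and DESeq2 1.42.0. The tests were tested on simulated data. At these depths 3 counts equal 0.0764 to 0.132 RPM, for counting error only. Duplicate libraries were not found (smallest chi-square per degree of freedom 16.6 over 55 pairs). Exon lengths came from GENCODE release 29 (GRCh38), matched for all 36 members. Protein sequences were not used here.

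Of 36 members 34 are described or shown, and the others are counted in every total but not reported here. Library values were given for members whose groups did not overlap and for MARS1, MARS2, WARS1 and EPRS1. They were also given for the 3 largest rises and falls of each compartment, ranked over all members, where the member is described. AARS1 and YARS1 were added after their values were seen. Members and lists were chosen with earlier results of these data known. PSMB8, PSMB9, TAP1, CXCL9 and HLA-E of the interferon-gamma list and AARSD1 of the related genes did not pass the filter.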

Additional observations from a re-analysis of the deposited data

Results flagged for a closer look

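In 74 groups of library values (34 members and 3 sums or ratios in each group) the highest or lowest library stood apart from the rest of its group by Dixon's criterion 9 times, where chance gives about 1 in 20. Evexomostat replicate 003 accounted for 5 of these. It had the lowest level of its group for SARS1 (99.97 CPM, others 139.6 to 155.6), LARS2 (26.4 CPM, others 38.3 to 40.3) and PARS2 (7.66 CPM, others 11.2 to 12.6). It had the highest for AARS2 (29.5 CPM, others 25.8 to 26.8) and VARS2 (5.43 CPM, others 2.14 to 3.05).

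Vehicle replicate 001 accounted for 2. VARS2 was at 3.68 CPM there (others 2.26 to 2.63) and AARS2 at 15.6 CPM (others 23.1 to 26.8). In vehicle replicate 005 the level of QARS1 was 390.9 CPM, and the other vehicle libraries lay at 268.8 to 305.2. The ratio of cytosolic to mitochondrial summed CPM was 5.16 in evexomostat replicate 005, the lowest of its group, against 5.33 to 5.39, and still above every vehicle library.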

How the results depend on the processing

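The number of members past the threshold was 0 in all alternatives except DESeq2 (1), limma-voom with quality weights (5) and the fit without vehicle replicate 001 (1). Across the 11 fits that each left out 1 library it ranged from 0 to 1. Both groups have a replicate 003, 004, 005 and 007. Between libraries sharing a number, the correlation of deviations from the group mean was -0.272, 0.0664, 0.0489 and -0.0998, which gives no pairing of tumours. The replicate block on these 8 libraries gave 0 members, as did the same 8 libraries without it, while 107 and 733 of all genes were called, and 19 of 36 members were above 0 in both. MARS1 ranged from 0.53 to 0.71 over all its alternatives, with edgeR, DESeq2 or limma adjusted p-values of 0.00792 to 0.239, and was called in 3 of 22. The median log2 fold change of mitochondrial members, 0.03, changed sign in 4 alternatives: -0.063 with the replicate block, -0.065 on the same 8 libraries, and -0.0035 and -0.0085 without vehicle 006 or evexomostat 002. Over all alternatives the medians stayed above 0 for cytosolic (0.12 to 0.25), ATF4-listed (0.13 to 0.28) and other cytosolic members (0.075 to 0.25). In the RPM fits the all-gene median shifted by 0.11 and 0.14. Of 36 members, 26 kept their sign in every setting.

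These members changed sign. With the replicate block and, after it, on the same 8 libraries without the replicate block, EARS2 was at -0.15 and -0.14, EPRS1 at -0.11 and -0.12, IARS1 at -0.091 and -0.084, MARS2 at -0.15 and -0.18, NARS2 at -0.0024 and -0.00019, SARS2 at -0.0058 and -0.0088 and TARS2 at -0.0047 and -0.0088. TARS2 was at -0.00035 with relative log expression scaling and -0.00019 with DESeq2, EPRS1 at -0.0015 with limma-voom, and RARS1 at 0.017 with quality weights. With log2(RPM + 1) and log2(RPM + 0.1), LARS2 was at 0.070 and 0.073 and WARS2 at 0.016 and 0.017. Over the fits without 1 library the ranges were -0.061 to 0.13 for EARS2, -0.075 to 0.091 for EPRS1, -0.19 to 0.033 for LARS2, -0.080 to 0.19 for MARS2, -0.0047 to 0.10 for NARS2 and -0.040 to 0.052 for TARS2.

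The log2 difference of the cytosolic to mitochondrial ratio was 0.23, and 0.13 with geometric means, 0.13 without IARS1 and IARS2 and 0.13 without IARS2 alone, alternatives that were added after the data had been seen. Counting TARSL2 as mitochondrial was not run because no row has that symbol. For each of these changes the cause was not tested.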
